A study of Mus musculus with 6 samples.

Results

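The 9 genes described here encode the enzymes that mature and cross-link collagen outside the cell: the 5 lysyl oxidases Lox, Loxl1, Loxl2, Loxl3 and Loxl4, the procollagen C-proteinases Bmp1 and Tll1, and the C-proteinase enhancers Pcolce and Pcolce2. They were taken by symbol from the 41388 genes in the count tables. The counts came from sorted cells of mammary tumors in 12-week-old female mice of the strain FVB/N-TgN(MMTVPyVT)634Mul/J, in which the mouse mammary tumor virus (MMTV) promoter, active mainly in mammary epithelium, drives the oncogene PyMT (polyoma middle T). No treatment is given in the labels, and all samples carried the transgene. TICs (tumor-initiating cells, CD24+CD90+CD45-) were set against non-CD24+CD90+ tumor cells, meaning CD45- cells that lacked either or both markers, called the other cells below. Each group held 3 samples, each a pool of 4 cell sorts. A total of 12 mice is given in the study, and whether both groups came from the same animals is not stated. No epithelial marker apart from CD24 entered the sort, and the series record describes the other cells more narrowly, as negative for both markers.

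Fibrillar collagens are secreted as procollagens, whose C-terminal propeptides keep them soluble until a C-proteinase removes them. Bmp1 and Tll1 are metalloproteases of the astacin family that make this cut, and Pcolce and Pcolce2 bind the propeptide and speed it up. Once fibrils form, lysyl oxidases, which depend on copper, oxidize lysine side chains in collagen and elastin, and the resulting aldehydes condense into covalent cross-links. Bmp1 also cleaves the proform of Lox to the active enzyme. In mammary tumors, cross-linking of this kind is known to stiffen the matrix.

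Total counts ranged from 6781239 to 9100552 per sample, and 3 counts correspond to 0.33 to 0.442 CPM, the count scaled to the library's total. A filter of more than 1 CPM in 3 or more samples left 12192 genes. Raw counts were tested with edgeR's exactTest, and a gene was called if its p-value, adjusted by Benjamini and Hochberg's method over all kept genes, was below 0.1. CPM values below are normalized by the TMM method (trimmed mean of M-values). Permuting 3 samples against 3 exactly allows no p-value under 0.1, so smaller ones rest on dispersions shared by edgeR between genes.

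Of the 9 genes, 7 passed the filter. Of these 7, Lox, Loxl2 and Pcolce were called, all higher in TICs, where 1.36% of all kept genes were called higher. No member was called lower. In Loxl1, as in the 3 called genes, all 3 TIC samples exceeded all 3 others, an order that 7.69% of all kept genes showed. The log2 fold change was positive in all 7, with a median of 0.82. Over all kept genes it was positive in 49.7%, with a median of -0.006. edgeR's quasi-likelihood test called 1 of the members, Pcolce, with 0.402% of all genes called higher. DESeq2 called the same 3 members as exactTest, with 1.89% of all genes called higher.

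**Figure D1:**
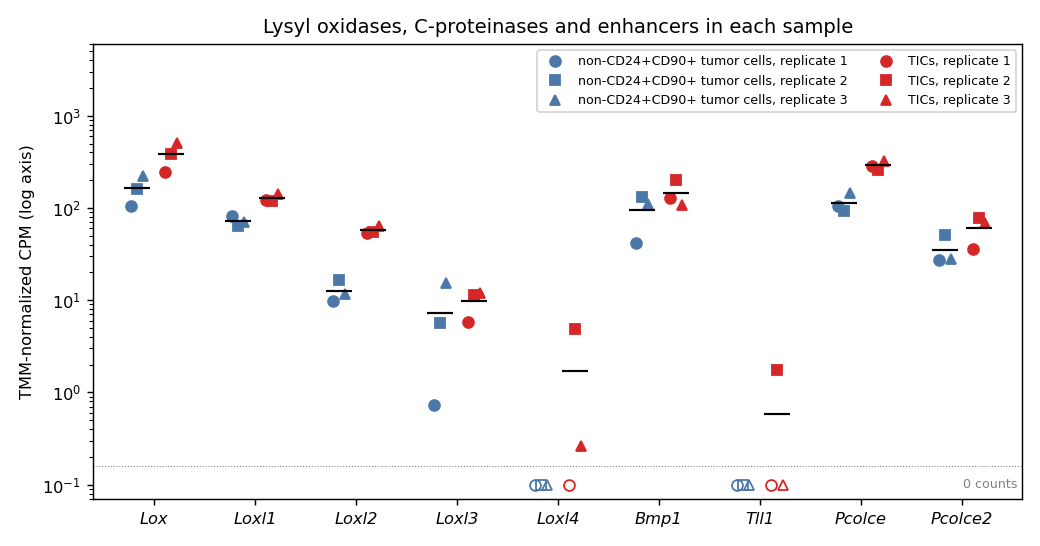
TMM-normalized CPM (log axis) of the 9 genes in each sample, with the other cells in blue, TICs in red, 1 symbol shape per replicate and black bars for group means. Open symbols under the dotted line are samples with 0 counts. All 3 TIC samples lie above all 3 other samples for Lox, Loxl1, Loxl2 and Pcolce, while the groups overlap for Bmp1, Pcolce2 and Loxl3.

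Lox (ENSMUSG00000024529, chromosome 18, 52516067 to 52529867 on GRCm38), the founding lysyl oxidase, had the highest mean level per kb of exon in both groups, though its range overlapped that of Pcolce. Its level was 106.1, 159.9 and 221.7 CPM in replicates 1 to 3 of the other cells and 245.7, 386.6 and 508.8 CPM in TICs. The highest sample of the other cells thus came close to the lowest TIC sample, and both groups spread widely. The means were 380.4 ± 131.6 CPM in TICs and 162.6 ± 57.9 CPM in the other cells (SD, n = 3). TICs were 2.34-fold higher, or 1.23 ± 0.36 on the log2 scale (standard error), with an adjusted p of 0.067 in exactTest. Lox passed the threshold in 3 of 6 alternative settings with every sample included, with adjusted p-values from 0.014 to 0.21 over these settings. Its call was lost without other-cell replicate 1 (adjusted p = 0.45) or 2 (adjusted p = 0.36), and without TIC replicate 2 (adjusted p = 0.2) or 3 (adjusted p = 0.29).

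Loxl2 (ENSMUSG00000034205, chromosome 14, 69609068 to 69695834), a lysyl oxidase with scavenger receptor domains that acts on basement membrane collagen IV, had the largest fold change of the 7 kept members. The other cells had 9.78, 16.6 and 11.7 CPM of Loxl2, from 67, 146 and 82 counts. TICs had 53.4, 54.2 and 64.0 CPM, from 486, 465 and 485 counts. The gap between the groups was wide, and the TIC samples lay close together. The means were 57.2 ± 5.89 and 12.7 ± 3.5 CPM (SD, n = 3). This is a 4.5-fold difference, 2.17 ± 0.53 on the log2 scale (standard error), and its adjusted p was 0.018 in exactTest. Loxl2 was called in 5 of 6 alternative settings with every sample included and missed the threshold in the quasi-likelihood test (adjusted p = 0.13). Leaving out other-cell replicate 1 or 3 also ended the call, with adjusted p-values of 0.16 and 0.13, although the log2 fold change stayed between 2.02 and 2.41 whichever sample was left out. Exons of Loxl2 share 301 bases (5.6% of their length) with Gm27177 on the other strand, and whether the counting used strand is not stated in the sources used here.

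Loxl1 (ENSMUSG00000032334, chromosome 9, 58287738 to 58313186), which is known for its role in elastic fiber renewal, had 82.3, 64.3 and 70.5 CPM in the other cells and 120.7, 120.2 and 142.9 CPM in TICs. The groups did not overlap and the spread was small, with means of 127.9 ± 13.0 CPM in TICs and 72.4 ± 9.13 CPM in the other cells (SD, n = 3). The log2 fold change of 0.82 (standard error 0.33) had a 95% interval from 0.18 to 1.46, an unadjusted p-value of 0.013 in exactTest and an adjusted p-value of 0.34. Loxl1 was not called in any of the 12 other fits, whose adjusted p-values ranged from 0.18 to 0.88.

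Loxl3 (ENSMUSG00000000693, chromosome 6, 83034173 to 83052562) and Loxl4 (ENSMUSG00000025185, chromosome 19, 42593982 to 42612813), relatives of Loxl2 with the same type of domains, were far lower. Loxl3 had 0.73, 5.67 and 15.3 CPM in the other cells, a range that spanned the 5.82, 11.3 and 12.1 CPM of TICs. Its log2 fold change of 0.43 had a 95% interval from -2.12 to 2.98, and a difference was not detected (adjusted p = 1 from exactTest). The sign turned to -0.1 without other-cell replicate 1, where Loxl3 had 5 counts. Loxl3 also shares 535 exon bases (11.6%) with Htra2 on the other strand. Loxl4 had 42 counts in TIC replicate 2, 2 counts in TIC replicate 3 and 0 in the other 4 samples, and it did not pass the filter.

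**Figure D2:**
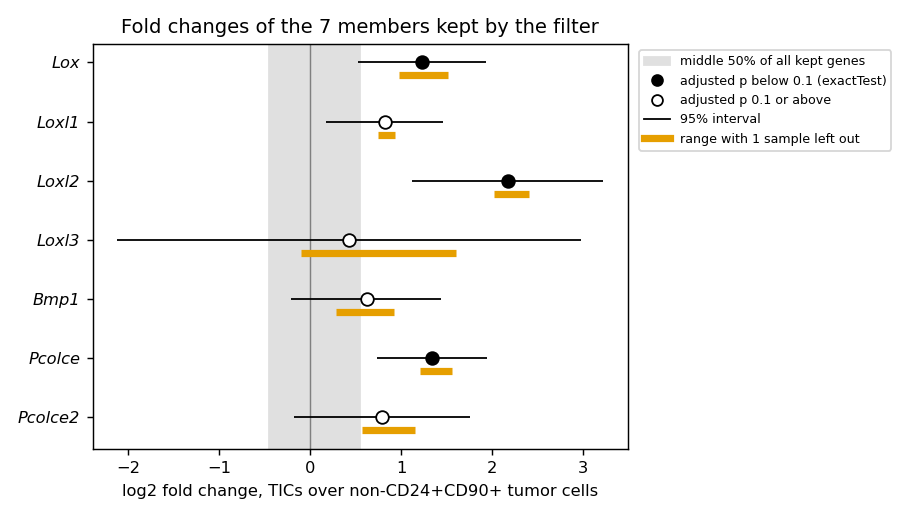
Log2 fold change of the 7 kept members in TICs over the other cells, as points with 95% intervals (black lines) and, below each, the range when 1 sample at a time was left out (orange). Filled points passed an adjusted p-value of 0.1 in exactTest, and the grey band, from -0.45 to 0.55, holds the middle 50% of all kept genes. Loxl2 lies farthest right at 2.17, and the interval of Loxl3 runs from -2.12 to 2.98.

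Bmp1 (ENSMUSG00000022098, chromosome 14, 70474558 to 70520234), the main procollagen C-proteinase, did not pass the threshold. Its level was 42.0, 130.3 and 110.4 CPM in the other cells and 126.8, 199.0 and 107.5 CPM in TICs. TIC replicate 3 lay below 2 of the 3 samples of the other cells, and other-cell replicate 1 stood lowest. The log2 fold change was 0.62 with a 95% interval from -0.21 to 1.44 (adjusted p = 0.9 from exactTest). Without other-cell replicate 1 it was 0.28. Tll1 (ENSMUSG00000053626, chromosome 8, 64014931 to 64206271), a tolloid-like C-proteinase, had 15 counts in TIC replicate 2 and 0 in the other 5 samples. Tll2, the other tolloid-like protease, had 0 counts in every sample. Zeros of this kind bound the level only loosely, as genes predicted at 20 to 60 counts from the other samples of their group show. In replicates 1 to 3, 22.3%, 19.7% and 25.1% of them were at 0 in the other cells. In TICs the share was higher in every sample, at 27.5%, 32% and 37.7%, and the cause was not tested.

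Pcolce (ENSMUSG00000029718), the enhancer that binds the procollagen C-propeptide, had the smallest p-value of the 7 kept members in exactTest. It reached 104.1, 92.6 and 146.3 CPM in the other cells and 287.8, 258.1 and 320.8 CPM in TICs. The groups were clearly apart, with means of 288.9 ± 31.3 CPM in TICs and 114.3 ± 28.3 CPM in the other cells (SD, n = 3). Pcolce was 2.53-fold higher in TICs (1.34 ± 0.31 on the log2 scale, standard error) at an adjusted p of 0.0057 in exactTest. Pcolce was called in all 6 alternative settings with every sample included, with adjusted p-values from 0.00037 in DESeq2 to 0.073 in the quasi-likelihood test. Without other-cell replicate 2 it missed the threshold (adjusted p = 0.15, log2 fold change 1.21). Pcolce shares 112 exon bases (2.9%) with Fbxo24 on its own strand and with Gm36266 on the other.

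The promoter table from RefSeq (build GRCm38.p6) held 4 of the 9 genes, Pcolce, Pcolce2, Tll1 and Loxl4, and Pcolce is shown because it is the called gene among them. Pcolce spans 137605103 to 137613784 on the minus strand of chromosome 5 in GENCODE M21. The 167 bases lie just before the outermost annotated start of its main group of transcripts and inside the first intron of longer transcripts that begin further upstream. They cover chr5:137611488-137611654, are written 5′ to 3′ on the minus strand, and carry capitals where they match CAGGTG, the E-box form bound by zinc finger factors such as Zeb1, or its reverse complement.
Pcolce: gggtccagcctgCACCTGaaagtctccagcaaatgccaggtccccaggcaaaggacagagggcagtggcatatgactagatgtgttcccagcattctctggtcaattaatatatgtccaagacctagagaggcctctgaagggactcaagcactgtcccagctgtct
The match is CACCTG at bases 13 to 18. Of 32851 promoters in the table, 12.1% hold this motif on either strand in a window of the same length and position. ACGTG, the core of the hypoxia response element, and its reverse complement CACGT had no match in the Pcolce window and occur in 10.3% of all windows. These letter matches describe the sequence and are not evidence of binding.

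Pcolce2 (ENSMUSG00000015354, chromosome 9, 95637601 to 95698096), the other enhancer, had 27.1, 50.7 and 28.0 CPM in the other cells and 36.2, 78.3 and 68.6 CPM in TICs. TIC replicate 1 lay below other-cell replicate 2, so the groups overlapped. Its log2 fold change of 0.79 had a 95% interval from -0.18 to 1.76 (adjusted p = 0.86 from exactTest). Whether Pcolce and Pcolce2 differed from each other in their fold change was not tested.

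Levels of different genes were compared as CPM per kb of exon, over the union of all annotated exons. In TICs the order was Lox at 79.6 ± 27.5, Pcolce at 75.6 ± 8.2, Loxl1 at 38.8 ± 3.93, Bmp1 at 16.3 ± 5.44, Pcolce2 at 13.2 ± 4.78, Loxl2 at 10.6 ± 1.09 and Loxl3 at 2.12 ± 0.745 CPM per kb (SD, n = 3). In the other cells it was the same, from Lox at 34.0 ± 12.1 and Pcolce at 29.9 ± 7.4 through Loxl1 at 22.0 ± 2.77, Bmp1 at 10.6 ± 5.22 and Pcolce2 at 7.63 ± 2.89 to Loxl2 at 2.35 ± 0.647 and Loxl3 at 1.57 ± 1.61 CPM per kb. Lox and Pcolce overlapped in both groups, as did Bmp1 and Pcolce2, and these neighbours could not be ranked. Lox and Loxl1 also overlapped in the other cells, where Loxl1 was above Lox in replicate 1, at 24.96 and 22.2 CPM per kb. Loxl2 overlapped Pcolce2 in TICs and Loxl3 in the other cells, and Loxl1 overlapped Pcolce only in the other cells; these shifts between groups were not tested.

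Summed per kb, the 5 lysyl oxidases reached 99.2, 131.0 and 164.4 CPM per kb in TICs and 49.1, 57.3 and 73.3 CPM per kb in the other cells. Lox made up 51.9% to 64.8% of this sum in TICs and 45.2% to 63.3% in the other cells, which overlap. Loxl1 held 26.4% to 36.9% and 29.2% to 50.8%. The share of Loxl2 was 7.2% to 9.96% in TICs and 2.96% to 5.35% in the other cells, without overlap. Transcripts of Lox and Loxl1 thus formed most of the lysyl oxidase signal in every sample.

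**Figure D3:**
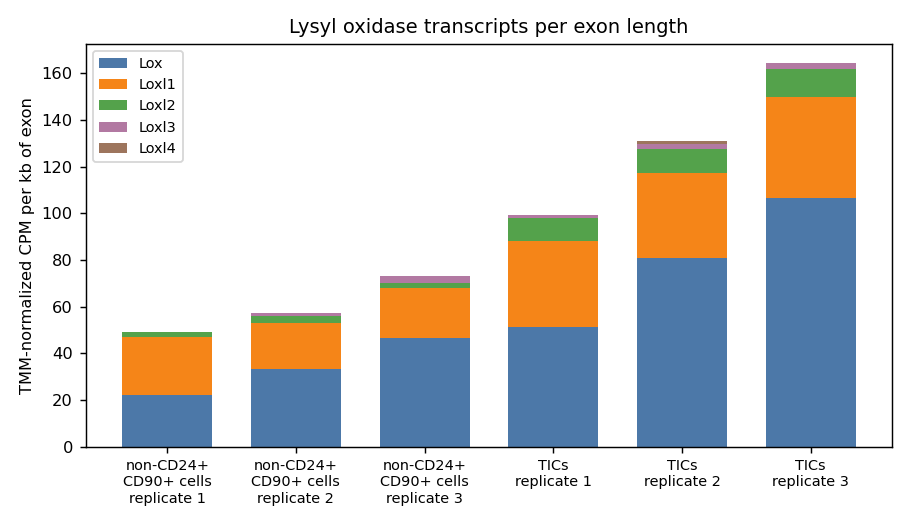
TMM-normalized CPM per kb of exon of the 5 lysyl oxidases, stacked for each sample. The stacks reach 49.1 to 73.3 in the other cells and 99.2 to 164.4 in TICs, and Lox and Loxl1 fill most of each.

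Since these enzymes act on fibrillar collagen, their counts were also set against the summed counts of Col1a1, Col1a2 and Col3a1 in the same sample, a ratio that does not depend on the normalization. These 3 collagens summed to 16954 to 18892 counts in the other cells and 58777 to 69900 in TICs. The log2 ratio of Lox was -4.54, -3.75 and -3.52 in the other cells and -4.72, -4.4 and -4.06 in TICs, and the groups overlapped. That of Pcolce averaged -4.73 ± 0.25 in TICs and -4.41 ± 0.25 in the other cells (SD, n = 3), also overlapping. Loxl2 went the other way in its mean, at -7.07 ± 0.16 and -7.59 ± 0.51, again with overlap. The ratio of Bmp1 overlapped as well, at -5.78 ± 0.48 in TICs and -4.81 ± 0.95 in the other cells.

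Loxl1 and Pcolce2 had lower ratios in every TIC sample. The log2 ratio of Loxl1 was -4.91, -5.06 and -5.17 in the other cells and -5.74, -6.08 and -5.9 in TICs. That of Pcolce2 averaged -7.05 ± 0.4 in TICs and -6.14 ± 0.64 in the other cells (SD, n = 3). Ratios to collagen were lower in all 3 TIC samples for 74.9% of the 8565 genes with at least 10 counts in every sample, so that such an order is the usual one. These ratios are descriptions with no test.

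**Figure D4:**
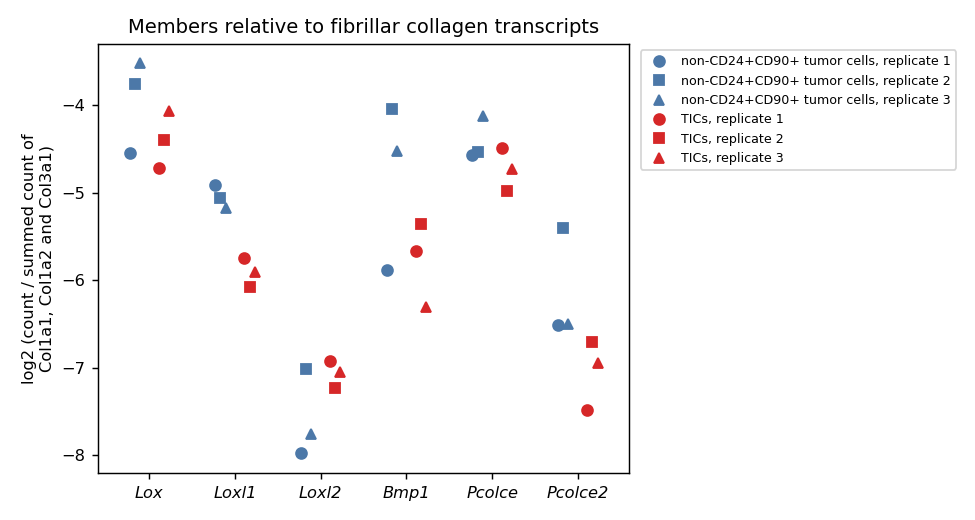
Log2 of the count of each member with at least 10 counts in every sample over the summed count of Col1a1, Col1a2 and Col3a1, with the other cells in blue, TICs in red and 1 symbol shape per replicate. The groups are apart for Loxl1 and Pcolce2, both lower in TICs, and overlap for Lox, Loxl2, Bmp1 and Pcolce.

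Ratios between members were taken in the same way. The log2 ratio of Loxl2 to Lox was -3.44, -3.27 and -4.24 in the other cells and -2.2, -2.83 and -2.99 in TICs, higher in every TIC sample, an order that 0.339% of the 8565 genes showed relative to Lox. That of Loxl1 to Lox averaged -1.51 ± 0.43 in TICs and -1.11 ± 0.67 in the other cells (SD, n = 3) and overlapped. Pcolce to Bmp1, the enhancer over the enzyme it assists, averaged 1.04 ± 0.61 in TICs and 0.41 ± 0.9 in the other cells and overlapped too.

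Among 45 further genes of collagen maturation, 36 passed the filter, 13 were called higher in TICs by exactTest, beside 1.36% of all kept genes, and 0 were called lower. The quasi-likelihood test called 10 of them and DESeq2 13. At an unadjusted p-value below 0.05, exactTest listed 18 of the 36 and 957 of all 12192 kept genes. Of 11 fibrillar procollagen genes, the substrates, 10 were kept and 5 called: Col1a1, Col1a2, Col3a1, Col5a1 and Col5a2. Col1a1, the most abundant, reached 4718.1 ± 981.2 CPM in TICs and 1621.8 ± 223.4 CPM in the other cells (SD, n = 3), a rise of 1.54 ± 0.28 on the log2 scale (standard error) at an adjusted p of 0.00012 in exactTest. The median log2 fold change of this list was 1.21, against -0.006 for all kept genes. Of 6 other procollagen processing proteases, 3 were kept, and Adamts2, which removes the N-terminal propeptide, was called with a log2 fold change of 1.69 (adjusted p = 0.00057). Adamts3 and Adamts14, its relatives, were not.

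Of 13 other substrates of the C-proteinases, 8 were kept and 3 called, the proteoglycans Bgn, Dcn and Ogn, with log2 fold changes of 1.44, 1.48 and 1.55. The quasi-likelihood test, and exactTest without other-cell replicate 3, each called 1 of this list. The 9 lysyl oxidase partners and elastic fiber substrates were all kept. Of these, 4 were called: fibrillin Fbn1, fibronectin Fn1, periostin Postn, which bridges Bmp1 to its substrates, and fibromodulin Fmod, a collagen-binding proteoglycan that also binds Lox. Fmod had the largest log2 fold change, 2.88 (standard error 0.7, adjusted p = 0.022), from 41.1 ± 16.0 and 5.56 ± 2.16 CPM. Without other-cell replicate 2, 2 of these 9 were called. Eln, the gene of elastin, was near the filter at 3.39 ± 2.37 and 2.76 ± 2.41 CPM and did not pass the threshold (adjusted p = 1).

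Of the copper supply genes Atp7a, Slc31a1 and Atox1, 0 of 3 were called and the median log2 fold change was -0.39. Of the lysyl hydroxylases Plod1, Plod2 and Plod3, which prepare lysines for cross-linking inside the cell, 0 of 3 were called and the median was 0.08. At an unadjusted p-value below 0.05, exactTest listed 0 of these 6 genes, and the quasi-likelihood test and DESeq2 called 0.

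**Figure D5:**
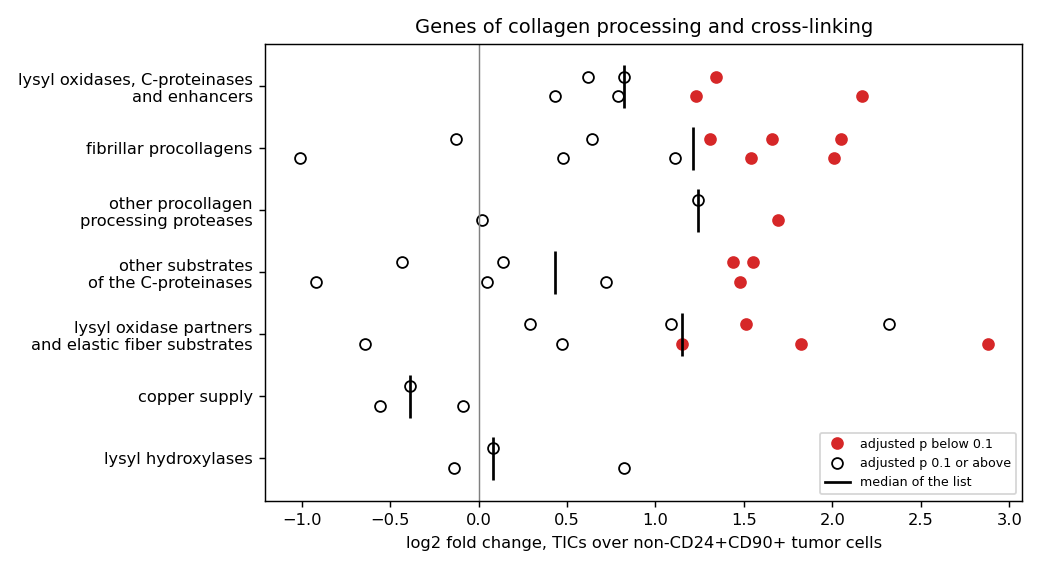
Log2 fold change in TICs over the other cells of the kept genes in each list, with red points for genes at an adjusted p-value below 0.1 in exactTest, open points for the others and a black line at the list's median. Called genes stand only on the right, in the first 5 lists, and the copper supply and lysyl hydroxylase lists hold none.

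Markers of other cell types gave the following levels beside these results. The summed level of 6 fibroblast markers was 648.8 to 1161.5 CPM in TICs and 308.9 to 436.7 CPM in the other cells, and 2 of the 6, Dpt and Pi16, were called higher. At an unadjusted p-value below 0.05, exactTest listed 5 of these 6. The sum of 8 pericyte and smooth muscle markers was 925.8 to 1441.6 CPM and 531.6 to 657.7 CPM, with 1 of the 8 called. This was Rgs5, which made up most of the difference in the sum at 665.0 and 243.0 CPM. The log2 fold change was positive in 7 of the 8, beside 49.7% of all kept genes, with a median of 1.13. At an unadjusted p-value below 0.05, exactTest listed 4 of the 8, beside 957 of all 12192 kept genes. Acta2 and Myh11 had log2 fold changes of -0.01 and 0.07 (adjusted p = 1 for both in exactTest). The sum of 6 endothelial markers was 142.7 to 482.0 CPM and 112.0 to 123.8 CPM with 0 called by exactTest, the quasi-likelihood test or DESeq2 and 3 at an unadjusted p-value below 0.05 in exactTest. Conversely, 6 luminal epithelial markers, each with counts in every sample, summed to 3592.1 to 4270.8 CPM in TICs and 5568.3 to 5898.5 CPM in the other cells. The 5 basal epithelial markers overlapped, at 365.5 to 593.0 CPM and 450.4 to 1001.3 CPM. Of these 11 epithelial genes exactTest and the quasi-likelihood test called 0, with 3 at an unadjusted p-value below 0.05 in exactTest (Krt18, Cdh1 and Krt14), while DESeq2 called Krt18 (adjusted p = 0.0018) and Cdh1 (adjusted p = 0.026), both lower in TICs. Eln, Adamts3, Adamts14, Acta2, Myh11, Cd68 and these 3 epithelial genes were singled out after their values were seen.

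Of 5 leukocyte markers, Cd3e was at 0 in all samples and Ptprc, the gene of the sorted-out CD45, had 33 counts in other-cell replicate 1 and 0 in the others. Their sum was 32.1 to 80.7 CPM in TICs and 8.01 to 29.4 CPM in the other cells. Lyz2, a myeloid gene, was called higher in TICs at 55.1 ± 24.4 and 8.57 ± 3.86 CPM (SD, n = 3). Cd68, the other kept marker of this list, was at 8.68 ± 6.88 and 10.8 ± 6.94 CPM and not called (adjusted p = 1), so that the higher sum in TICs was carried by Lyz2. The 3 adipocyte markers were at 0 throughout. The sorting markers Cd24a and Thy1 were not called, with log2 fold changes of -0.34 and 1.25 (unadjusted p = 0.25 and 0.014 in exactTest). Both overlapped between the groups, and Thy1 was at 70.3 CPM in TIC replicate 3 and 75.9 CPM in other-cell replicate 1. The part of the stromal and leukocyte markers in the rise of Lox, Loxl2 and Pcolce was not tested, and in bulk samples more cells of a type and more RNA per cell cannot be told apart.

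The genes closest to each called member were sought among 8761 kept genes with a mean of at least 10 CPM, by the root mean square distance between profiles of log2(CPM + 0.25) over the 6 samples, each centred on its mean. The nearest to Pcolce were Cd74 at 0.14, Bgn at 0.156 and Postn at 0.177 log2 units. Loxl2 was nearest to Ntan1 at 0.209, Col8a1 at 0.246 and Caskin2 at 0.252. Lox was nearest to Atf2 at 0.118, Tk2 at 0.151 and Rin3 at 0.169. All 6 samples enter the distance, the group difference included, so these names describe the profiles only.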

How the data were processed

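RNA-seq libraries were made from 120 ng of RNA of each of the 6 pools. Reads were trimmed with Trimmomatic 0.32, aligned to GRCm38 with STAR 2.4.0, reduced to uniquely mapped reads with SAMtools 1.1 and counted with HTSeq, and the authors deposited raw counts per Ensembl gene. The annotation release and the HTSeq version and settings are not given in the sources used here. Gene symbols came from a table of Ensembl IDs that matched 40254 of the 41388 genes, the unmatched ones holding 0.17% of counts, and coordinates and exon lengths came from GENCODE M21 (GRCm38).

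Counts were filtered and compared with exactTest in edgeR 4.0.16 (R 4.3.3), with Benjamini-Hochberg adjustment, after the methods of the study, which state a CPM filter without its value. TMM normalization and tagwise dispersions were chosen here. The common dispersion was 0.678. Standard errors and 95% intervals of log2 fold changes came from the negative binomial fit. Alternatives were the quasi-likelihood test, DESeq2 1.42.0, scaling by RLE or by library size only, no filter, a filter of 10 counts in every sample, an adjusted p-value below 0.05 and each sample left out in turn. The scripts were tested on simulated counts. Samples were grouped by the description in the labels, and replicate numbers follow sample order and pair nothing. Each sample is a pool of sorts, so p-values measure the spread between pools. The standard errors and 95% intervals include this spread through the tagwise dispersions, while floors from counts cover counting error only. The members, lists and ratios were chosen with earlier results of these data known. By rule, the named genes are the 9 members, the called and the most abundant genes of the pathway lists, markers called or at 0, and the 3 nearest profiles of each called member. Other genes are named to spell out a short list or were chosen after their values were seen.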

Additional observations from a re-analysis of the deposited data

How the results depend on the processing

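The number of genes called between the groups was 189 with exactTest and moved to 50 in the quasi-likelihood test (965 at an unadjusted p-value below 0.05), 306 in DESeq2, 112 without a filter on low counts and 116 at an adjusted p-value below 0.05, and to between 72 and 323 with 1 sample left out. The count of 3 members fell to 1 in the quasi-likelihood test and ranged from 1 to 3 with 1 sample left out, the calls that went being those of Lox, Loxl2 or Pcolce named with their values in the report. Scaling by library size alone and testing without a filter each called Loxl2 and Pcolce but not Lox (adjusted p = 0.11 and 0.13). The cause of these changes was not tested. A fit that leaves 1 sample out also has fewer samples, and the fit without a filter adjusted over 17168 genes. Of the 7 kept members only Loxl3 changed direction in these settings, to -0.1 without other-cell replicate 1. Of the counts recomputed for the pathway lists, 69 stayed within 1.5 times their value and 3 did not, as given in the report. Those that stayed include the copper supply and lysyl hydroxylase lists, with 0 genes called in every setting. They also include the other procollagen processing proteases, with 1 called in each. All 66 recomputed differences in log2 ratios, over other collagen denominators and with samples left out, moved by less than the larger of the 2 groups' SDs. Leaving out 1 of 3 samples cannot move a difference that far, so this limit was a check for the denominators only. With 1 sample left out, the difference for Loxl1 to Lox, -0.4 with all samples, ran from -0.67 to -0.03. That for Pcolce to Bmp1, 0.64 with all samples, ran from 0.19 to 1.09. Leaving samples out moved the log2 fold change of Loxl2 between 2.02 and 2.41 and that of Loxl3, at 5 to 107 counts, between -0.1 and 1.6. No paired analysis was possible because no label matches a sample of one group to a sample of the other, and any animals that the groups share are not modelled.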
